A study of Drosophila melanogaster with 12 samples.

Results

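Probe sets of uncharacterized Drosophila melanogaster genes, those that carry only an annotation number of the form CG plus digits, were examined for low signals in S284Y flies. A probe set was chosen when its single annotated symbol had that form, when log2(signal + 16) was lower on all 6 S284Y arrays than on all 6 WT arrays, and when the mean of the S284Y arrays minus that of the WT arrays was -0.7 or less. CG6277, CG6283, CG7214, CG4440 and CG4570 were left out by name. The rule found 47 probe sets of 45 genes among 13966 tested probe sets, of which 4906 carry such a symbol. These probe sets were chosen by their measured genotype difference, so their S284Y and WT values are given as a description and carry no test. The thresholds alone, whatever the symbol, were met by 1.22% of all tested probe sets, by 0.958% of CG probe sets and by 1.34% of 7532 probe sets of genes with proper names. The mirrored thresholds, with S284Y higher, were met by 27 CG probe sets. Just inside the difference threshold stood CG17646 (-0.82), CG9331 (-0.79) and CG4009 (-0.74), and just outside it CG16743 (-0.64), CG14400 (-0.64) and CG15255 (-0.63).

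The arrays measured total RNA of whole flies, each sample from 5 males and 5 females. There were 3 arrays of each of 4 groups: S284Y flies at 30C (restrictive) and at 25C (permissive), and wild-type (WT) flies at 30C and at 25C. S284Y is a mutation of dU2AF50, whose gene is U2af50, and the labels name no other allele or agent for any group. For the 3 WT 30C arrays the title and the description disagree on the temperature (30C against 25C), and the title was followed. The labels do not state that arrays of a group came from separate cultures, so p-values measure the spread between these samples, which may be technical. In whole flies, fewer cells of a type and less RNA per cell cannot be told apart.

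U2AF is the protein pair that marks the end of an intron for splicing: its large subunit, dU2AF50 in the fly, binds the pyrimidine-rich stretch before the 3′ splice site and helps bring the U2 particle to the branch point. CG numbers are the serial names that the fly genome annotation gave to predicted genes, and a gene keeps its number until someone names it. Many such genes nonetheless belong to known protein families, among them secreted digestive enzymes and membrane transporters. The family memberships below are general knowledge of these proteins and are stated only where they are sure, for 25 of the 45 genes. The other 20 genes are described by their values.

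In S284Y at 25C, arrays 2 and 3 were unlike the remaining ones, with a median correlation to the others of 0.870 and 0.842, against 0.924 to 0.939 for the rest. With both left out the rule would choose 144 probe sets, 43 of them among the 47, and without array 3 alone 96, 44 of them among the 47. After median centring it would choose 39, with 35 of the 47 among them, and after quantile normalization 46, with 40 of the 47. U2af50 itself had signals of 4445, 5488 and 5549 in S284Y flies at 30C and 4743, 3723 and 6198 at 25C, against 3977, 4894 and 4451 in WT flies at 30C and 4095, 4053 and 3792 at 25C. The S284Y change is a single residue that signals cannot check. Of 9 measured midgut markers, 3 were lower and 0 higher in S284Y at 30C, and 1 was lower and 1 higher at 25C (limma adjusted p under 0.05). Over all probe sets, 1.17% were lower at 30C and 0.473% at 25C. Of 10 fat body markers 5 were lower at 30C and 2 at 25C, with medians of -1.0 and -0.30, and of 5 renal tubule markers 1 was lower at 30C and 0 at 25C, with medians of -0.82 and -1.08. Within the fat body list the bright Yp1, Yp2 and Yp3 were higher in S284Y without passing, by 2.08, 0.87 and 1.01 at 30C. At 25C these 3 were higher by 1.60, 0.92 and 0.89. Summed signals of the fat body list ran from 125107 to 169874 in S284Y flies at 30C and from 140602 to 655600 at 25C, against 67722 to 118178 in WT flies at 30C and 120904 to 185870 at 25C. Those of the midgut list ran from 99665 to 103760 and from 118267 to 243990 in S284Y flies at 30C and 25C, against 78841 to 98447 and 103075 to 125213 in WT flies. Those of the renal tubule list ran from 12865 to 13248 and from 4759 to 13241 in S284Y flies, against 15239 to 16149 and 14933 to 16734 in WT flies. Among ovary and eggshell markers 1 of 7 was lower at 30C and 0 at 25C. Testis, accessory gland, eye, flight muscle and nervous system lists had 0 genes lower or higher at either temperature. The names nos (ovary list) and don (testis list) were matched to Nos and svp, which are other genes than those meant. The counts of these lists include them, and neither passed at either temperature. No marker was at 0, and the lowest signal of any was 9.0, in the nervous system list. The part of these markers in the results below was not tested.

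The 47 probe sets lay between 1.67-fold and 6.08-fold lower in S284Y by the mean over both temperatures. Differences below are S284Y minus WT means of log2(signal + 16), with the standard error (SE) of the limma fit, and a negative value means lower in S284Y. The mean difference was -2 or less for 8 probe sets, between -2 and -1 for 25 and closer to 0 than -1 for 14. At 30C the median over the 47 was -1.39, with a range of -2.93 to -0.59, and at 25C it was -1.32, with a range of -2.74 to -0.48, against medians over all tested probe sets of 0.03 and 0.00. Most were moderately bright: mean WT signals ran from 102 to 37271 with a median of 1077, against 361 over all CG probe sets. The choice required WT to be the higher genotype, and the added 16 shrinks differences of dim probe sets. The choice thus favours bright WT signals, and the higher median is no finding about these genes. The gap between genotypes was often narrow. For 21 probe sets the lowest WT signal was under 1.2 times the highest S284Y signal, and for 3 (CG6656, CG18088 and CG5399) it was over 2 times.

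**Figure D1:**
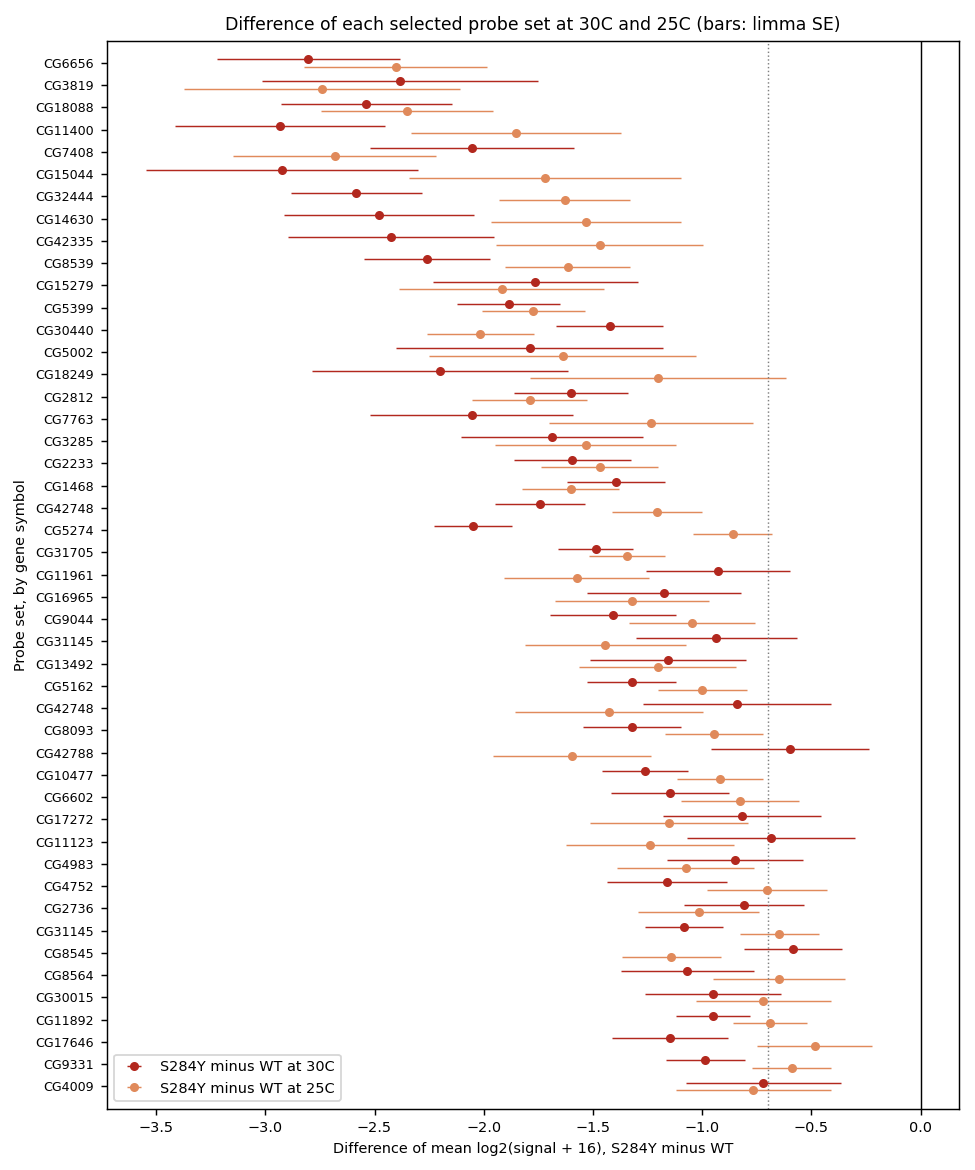
Difference of each of the 47 chosen probe sets, S284Y minus WT mean of log2(signal + 16), at 30C (dark red, upper point) and at 25C (orange, lower point), with bars of 1 SE of the limma fit and 3 arrays a group. All points lie left of 0, and the dotted line marks the -0.7 used for the choice, which applied to the mean over both temperatures.

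The 3 hydrolases of phosphate esters, nucleic acids and sulfate esters had the lowest median among the role groups, -2.38 at 30C and -2.68 at 25C. The role groups were put together by hand, and this one joins genes of 3 different families. Its place rests on the values used for the choice and is no result about a class of enzymes. CG6656, of the histidine acid phosphatase family, had signals of 9.1, 32.3 and 13.8 in S284Y flies at 30C and 18.2, 30.1 and 61 at 25C, against 241, 194 and 212 in WT flies at 30C and 180.0, 288 and 286 at 25C. The brightest S284Y array was far below the dimmest WT array. Its difference was -2.80 at 30C and -2.40 at 25C (SE 0.418), but the S284Y signals are close to the added 16, so the size moves with the offset (-3.66 and -2.89 with offset 1, -1.77 and -1.65 with offset 64, at 30C and 25C). CG3819, of a family of non-specific DNA and RNA nucleases, had 50.7, 40.7 and 270.5 in S284Y flies at 30C and 51.5, 53 and 259 at 25C, against 480.4, 609.5 and 480.5 in WT flies at 30C and 676, 685 and 774 at 25C. Array 3 of S284Y was the brightest of its group at each temperature and still below every WT array, and the difference was -2.38 at 30C and -2.74 at 25C (SE 0.632). CG7408, an arylsulfatase-type sulfatase, had 149, 37.2 and 169 in S284Y flies at 30C and 41.1, 38.6 and 45 at 25C, against 397, 461 and 577 in WT flies at 30C and 398, 269.7 and 409.5 at 25C. It differed by -2.05 at 30C and -2.68 at 25C (SE 0.465), and its 3 S284Y arrays at 25C were close together, whereas those at 30C were spread.

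**Figure D2:**
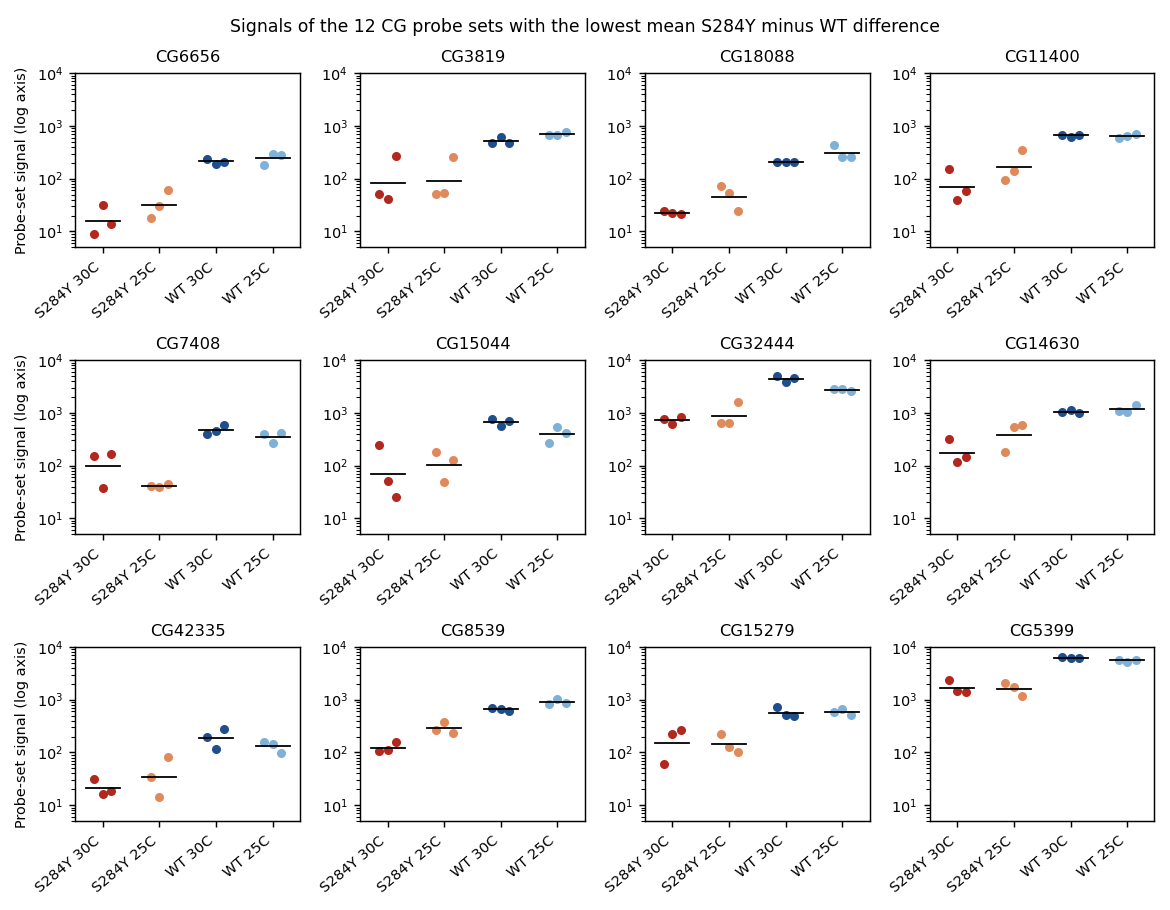
Probe-set signals (log axis) of the 12 CG probe sets with the lowest mean S284Y minus WT difference. Each point is 1 array, in the order S284Y 30C, S284Y 25C, WT 30C and WT 25C, and the line is the geometric mean of 3 arrays; WT points lie above all S284Y points in every panel because the choice required it.

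Enzymes that digest proteins made up 5 of the genes. CG8539 and CG8564 are zinc carboxypeptidases, which take single amino acids off the end of a peptide. Among the 25 genes with a stated family, theirs is the only family with more than 1 gene. CG8539 had 108, 109.9 and 158 in S284Y flies at 30C and 271, 377 and 229 at 25C, against 699.5, 663 and 602 in WT flies at 30C and 829, 1034 and 883 at 25C. Its S284Y signals at 30C were lower than those at 25C without overlap, and it differed from WT by -2.26 at 30C and -1.62 at 25C (SE 0.287). CG8564 was nearer to WT, with 154, 134 and 219.7 in S284Y flies at 30C and 274, 221 and 276 at 25C, against 376, 377 and 344 in WT flies at 30C and 366, 406 and 464 at 25C and a difference of -1.07 at 30C and -0.65 at 25C (SE 0.304). CG42335, of the aminopeptidase family that works from the other end of a peptide, was dim with 30.7, 16.3 and 18.7 in S284Y flies at 30C and 34, 14.5 and 83 at 25C, against 197, 116 and 273 in WT flies at 30C and 159, 145 and 98.2 at 25C. The S284Y signals are near the added 16 on several arrays, and the difference of -2.42 at 30C and -1.47 at 25C (SE 0.473) would be -1.55 and -0.91 with offset 64 at 30C and 25C. Another, dimmer probe set of CG42335 went the other way, with 0.62 at 30C and 0.17 at 25C. The serine protease CG10477 differed by -1.26 at 30C and -0.92 at 25C (SE 0.195) and the M28-type peptidase CG11961 by -0.93 at 30C and -1.58 at 25C (SE 0.331). CG10477 was bright, with S284Y signals of 930 to 2018 and WT signals of 2472 to 3913.

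The lipases, which split fats, numbered 2. CG5162, of the secreted pancreatic-type lipases, had 956, 994 and 711 in S284Y flies at 30C and 1215, 1712 and 1900.4 at 25C, against 2047, 2429 and 2202 in WT flies at 30C and 2808, 3449 and 3311 at 25C. CG8093, of the acid lipases, had 653, 443 and 356 in S284Y flies at 30C and 994, 795 and 1020.2 at 25C, against 1328, 1139 and 1128 in WT flies at 30C and 1885, 1736 and 1801 at 25C. In each, signals at 30C lay below those at 25C on all arrays within S284Y and within WT. The differences were -1.32 at 30C and -1.0 at 25C (SE 0.203) for CG5162 and -1.32 at 30C and -0.94 at 25C (SE 0.225) for CG8093.

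Enzymes of small molecules included CG32444, an aldose 1-epimerase, which interconverts the ring forms of sugars such as galactose. It had 752, 601 and 836 in S284Y flies at 30C and 642, 632 and 1627 at 25C, against 4939, 3867 and 4511 in WT flies at 30C and 2853, 2774 and 2582 at 25C. The WT arrays were brighter at 30C than at 25C without overlap while the S284Y arrays overlapped, and the difference was -2.58 at 30C and -1.63 at 25C (SE 0.300). CG14630, of the gamma-butyrobetaine dioxygenases that make carnitine, had 317, 117 and 144 in S284Y flies at 30C and 179, 549.7 and 594 at 25C, against 1048, 1138 and 981 in WT flies at 30C and 1073, 1033 and 1412 at 25C. It differed by -2.48 at 30C and -1.53 at 25C (SE 0.435), and S284Y array 1 at 25C lay among the 30C signals. Closer to WT were CG11892 of the ecdysteroid kinase-like family (-0.95 at 30C and -0.69 at 25C, SE 0.170), CG9331 of the 2-hydroxyacid dehydrogenases (-0.99 at 30C and -0.59 at 25C, SE 0.182) and the heme peroxidase CG4009 (-0.72 at 30C and -0.77 at 25C, SE 0.355).

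Proteins of the cell membrane were a further group of 5. CG15279, of the SLC6 family that brings in amino acids or transmitters with sodium, had 60.4, 219.8 and 265 in S284Y flies at 30C and 224, 126 and 102 at 25C, against 723, 508 and 495 in WT flies at 30C and 584, 658 and 522 at 25C. CG5002 is an SLC26-type anion transporter and CG3285 a sugar transporter of the SLC2 family, and they differed by -1.79 at 30C and -1.64 at 25C (SE 0.610) and by -1.69 at 30C and -1.53 at 25C (SE 0.416). The S284Y signals of CG5002 were uneven, from 52.6 to 384, which stands in its large SE. CG15279 differed by -1.76 at 30C and -1.92 at 25C (SE 0.470). The ABC transporter CG17646 (-1.15 at 30C and -0.48 at 25C, SE 0.264) and the CD36-type scavenger receptor CG2736 (-0.81 at 30C and -1.02 at 25C, SE 0.276) were nearer to WT. A further probe set of CG17646 was brighter and differed by -0.51 at 30C and -0.29 at 25C, with overlapping arrays.

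Binding proteins followed. CG5399, a lipocalin, the barrel-shaped carrier of small greasy molecules, had 2373, 1437 and 1411 in S284Y flies at 30C and 2116, 1759.7 and 1151 at 25C, against 6349, 6216 and 6286 in WT flies at 30C and 5739.5, 5274 and 5776 at 25C. It had the widest gap among bright probe sets, the lowest WT signal being 2.22 times the highest S284Y signal, and differed by -1.89 at 30C and -1.77 at 25C (SE 0.235). CG7763, a C-type lectin, was the dimmest in WT, with WT signals of 52.3 to 189.5 and S284Y signals of 6.6 to 49.5. Its difference of -2.06 at 30C and -1.23 at 25C (SE 0.466) depends on the offset (-1.11 and -0.74 with offset 64). CG17272, which carries calcium-binding EF hands, had S284Y signals of 880.0 to 3750 and WT signals of 3782 to 4089, and differed by -0.82 at 30C and -1.15 at 25C (SE 0.360).

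Among proteins that act inside cells or in the secretory path, CG31145 is a FAM20-type secretory kinase and CG8545 an RNA methyltransferase of the NOP2/Sun family. CG8545 had 1799.5, 1754 and 1896 in S284Y flies at 30C and 1437, 866 and 709 at 25C, against 3169.9, 2649 and 2426 in WT flies at 30C and 2102, 2077 and 2232 at 25C. In both genotypes the 30C arrays were brighter than the 25C arrays without overlap, and the difference was -0.59 at 30C and -1.14 at 25C (SE 0.225).

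The 20 genes without a stated family had a median difference of -1.41 at 30C and -1.32 at 25C over 21 probe sets. CG18088 had 24.8, 22.1 and 21 in S284Y flies at 30C and 71.2, 54.4 and 24.9 at 25C, against 206, 207 and 211 in WT flies at 30C and 443, 253 and 254 at 25C. Its S284Y signals at 30C lay within a few units of each other, and it differed by -2.54 at 30C and -2.35 at 25C (SE 0.392), or by -1.65 and -1.72 with offset 64. CG11400 had 152, 39.9 and 58.1 in S284Y flies at 30C and 92.9, 138 and 347 at 25C, against 688, 616 and 683 in WT flies at 30C and 591, 648 and 699 at 25C, a difference of -2.93 at 30C and -1.85 at 25C (SE 0.481). CG15044 had 248, 51.9 and 24.8 in S284Y flies at 30C and 183, 49.3 and 127 at 25C, against 753, 555 and 714 in WT flies at 30C and 268, 528 and 414 at 25C. WT array 1 at 25C came close to S284Y array 1 at 30C, and the difference was -2.93 at 30C and -1.72 at 25C (SE 0.623). The brightest of all 47 was CG2233, with 12125, 11804 and 10798 in S284Y flies at 30C and 18609.8, 18995 and 8237 at 25C, against 34520.2, 34408 and 35931 in WT flies at 30C and 38603, 41845 and 38318 at 25C. Its S284Y signals at 25C were uneven, with array 3 below all the others, and the difference was -1.59 at 30C and -1.47 at 25C (SE 0.268). CG30440 had 354, 442 and 414 in S284Y flies at 30C and 215, 144 and 166 at 25C, against 1201, 1152 and 974 in WT flies at 30C and 731, 784 and 728 at 25C. As for CG8545, the 30C arrays lay above the 25C arrays in both genotypes, and the difference was -1.42 at 30C and -2.02 at 25C (SE 0.244). CG18249 differed by -2.2 at 30C and -1.20 at 25C (SE 0.586), CG2812 by -1.60 at 30C and -1.79 at 25C (SE 0.262), CG1468 by -1.39 at 30C and -1.60 at 25C (SE 0.223) and CG31705 by -1.49 at 30C and -1.34 at 25C (SE 0.173). CG18249 was the most uncertain of these by its SE. The remaining ones apart from CG5274, which is given with the interaction, and the CG42748 pair were CG16965, CG9044, CG13492, CG42788, CG6602, CG11123, CG4983, CG4752 and CG30015, and these 9 ran from -1.41 to -0.60 at 30C and from -1.60 to -0.70 at 25C.

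Of the 45 genes, CG31145 and CG42748 were chosen through 2 probe sets each, so the 47 are not 47 independent genes. The dim probe set of CG31145 differed by -0.94 at 30C and -1.44 at 25C (SE 0.369) and the bright one by -1.08 at 30C and -0.65 at 25C (SE 0.181). A further one, not chosen, differed by -1.60 and -2.04 at 30C and 25C, with arrays that overlap. The pair of CG42748 differed by -1.74 at 30C and -1.21 at 25C (SE 0.207) and by -0.84 at 30C and -1.43 at 25C (SE 0.429), so at 25C their order is turned. In all, 7 of the genes had 11 further probe sets that were not chosen, 8 of them with a negative mean difference. None of the 11 had all S284Y arrays below all WT arrays. Those of CG42788 differed by -0.17 and 0.18 at 30C and by -0.19 and -1.13 at 25C. The first of them was brighter than the chosen one. That of CG30015, also brighter, differed by 0.17 at 30C and -1.21 at 25C. Those of CG42748 differed by -0.41 and -0.22 at 30C and by -0.85 and -0.85 at 25C. For CG30440 the chosen probe set was the bright one, and the other 3, with mean WT signals of 130 to 187, differed by 0.38, 0.25 and 0.39 at 30C and by -0.28, -1.51 and 0.10 at 25C. Its results rest on 1 of 4 probe sets.

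Across arrays, the median over the 47 of log2(signal + 16) minus the WT mean was -1.26, -1.40 and -1.45 in S284Y flies at 30C and -1.03, -1.24 and -1.27 at 25C, against 0.10, -0.00 and -0.05 in WT flies at 30C and 0.00, -0.03 and 0.01 at 25C. That every S284Y array is low was set by the choice; array 1 at 25C was the nearest to WT. Array 3 of S284Y at 25C was the most uneven: it was the lowest S284Y array for 11 probe sets and the highest for 15. Array 1 at 25C was the lowest for 1 and the highest for 13. The median SD over arrays of a group was 0.26 in S284Y at 30C and 0.56 in S284Y at 25C, against 0.16 in WT at 30C and 0.16 in WT at 25C, where all tested probe sets had 0.26, 0.58, 0.22 and 0.25. The choice required S284Y and WT arrays not to overlap, which favours a small spread. The smaller WT SDs are therefore no finding about these genes.

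The rule did not use temperature, so changes between 30C and 25C were tested. In S284Y flies 5 of the 47 changed at limma adjusted p under 0.05, 3 lower and 2 higher at 30C. Over all tested probe sets 4.0% changed, 2.18% lower and 1.82% higher. CG8539 fell by 1.11 ± 0.287 (SE, adjusted p = 0.0492), CG8093 by 0.97 ± 0.225 (adjusted p = 0.0391) and CG5162 by 0.84 ± 0.203 (adjusted p = 0.0427), which are a carboxypeptidase and both lipases. CG30440 rose by 1.15 ± 0.244 (adjusted p = 0.0298) and CG8545 by 0.91 ± 0.225 (adjusted p = 0.0445). All 5 were the same way on 3 of 3 arrays, that is, the 30C and 25C arrays did not overlap. At an unadjusted p under 0.05 there were 16 of the 47, against 25.7% of all. The S284Y arrays at 30C lay below those at 25C without overlap for 11 of the 47 and above them for 4, where 13.4% and 12.9% of all tested probe sets did so. The 5 calls are close to the threshold. Leaving out any of the 6 WT arrays left 0 of the 47 past it, where 0.967% to 1.57% of all tested probe sets passed. Without S284Y 30C array 2 or 3 it was also 0, where 0.222% and 0.122% of all passed. Without S284Y 30C array 1 it was 1 (0.959% of all), and without S284Y 25C array 2 it was 2 (3.28% of all). Without S284Y 25C array 1 there were 9, where 17.2% of all tested probe sets passed, and without array 3 also 9, where 7.35% passed, each time with the 5 among them. A fit of the 6 S284Y arrays alone gave 0, as it did over all tested probe sets (0.0%). With arrays 2 and 3 both left out from S284Y at 25C there was 1, which was none of the 5, against 1.31% of all tested probe sets.

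In WT flies 0 of the 47 passed between 30C and 25C by limma, against 0.0931% of all tested probe sets, and 5 of the 47 had an unadjusted p under 0.05, against 6.49%. The arrays at 30C lay above those at 25C without overlap for 7 of the 47 and below them for 10, against 11.3% and 12.2%. The median change was 0.03 and the range -0.59 to 0.76. The 4 with the lowest p were CG5274 (0.54 ± 0.180, adjusted p = 0.546), CG8093 (-0.59 ± 0.225, adjusted p = 0.672), CG5162 (-0.51 ± 0.203, adjusted p = 0.713) and CG32444 (0.69 ± 0.300, adjusted p = 0.746). In a fit of the 6 WT arrays alone 2 passed, CG8093 (adjusted p = 0.0408) and CG32444 (adjusted p = 0.0194), where 1.27% of all tested probe sets did. Over all alternatives the adjusted p ran from 0.0408 to 1.0 for CG8093 and from 0.0194 to 1.0 for CG32444. Leaving S284Y 25C arrays 2 and 3 out of the shared spread let CG32444 pass (adjusted p = 0.0302, 1.43% of all tested probe sets), as did leaving out array 3 alone (adjusted p = 0.0466, 0.709% of all). Both lipases and CG8539, CG30440 and CG8545 had WT values of the same sign as in S284Y. The plot of temperature changes shows each of them further from 0 in S284Y than in WT, a difference that the interaction below tested and that passed for 0 of them.

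**Figure D3:**
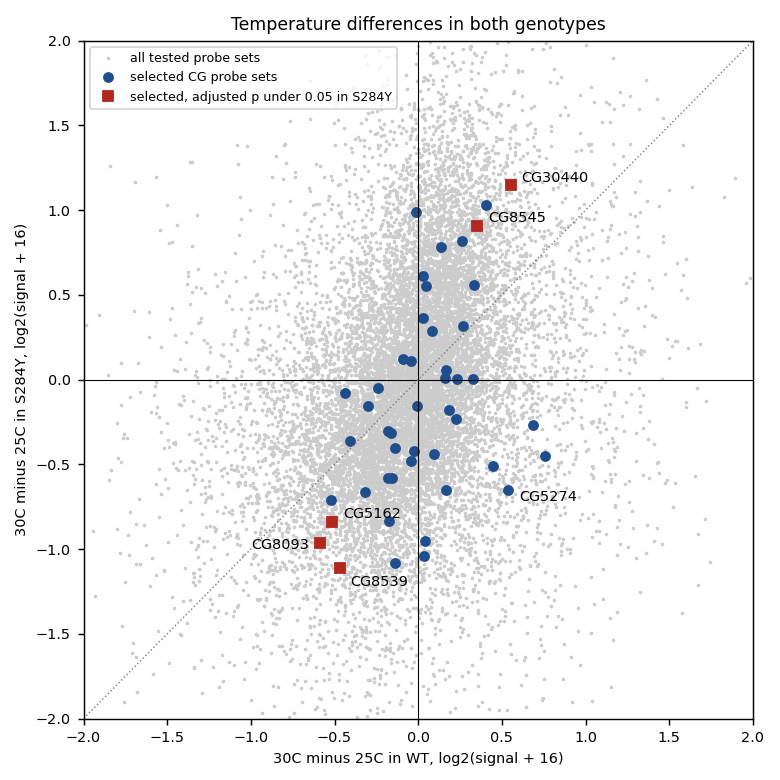
Change between 30C and 25C in S284Y (vertical) against WT (horizontal), on the log2(signal + 16) scale, for the 47 chosen probe sets (blue), the 5 of them past adjusted p 0.05 in S284Y (red squares) and all tested probe sets (grey, 140 beyond the axes not shown). The dotted diagonal marks equal change, and CG5274 lies in the quadrant of higher in WT and lower in S284Y.

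Whether the genotype difference itself depended on temperature was asked by the interaction, the change between 30C and 25C in S284Y minus that in WT. By limma 0 of the 47 passed, 0.00% of all tested probe sets did, and 2 of the 47 had an unadjusted p under 0.05 against 8.07% of all. With 3 arrays a group no temperature dependence of the difference was detectable for any of the genes. CG5274 had the lowest p (-1.19 ± 0.254, limma adjusted p = 0.342). It had 437, 443 and 385 in S284Y flies at 30C and 689, 639 and 681 at 25C, against 1572, 1879 and 1951 in WT flies at 30C and 1279.7, 1169 and 1241 at 25C. The S284Y arrays at 30C were all below those at 25C while the WT arrays at 30C were all above those at 25C, a pattern that 1 of the 47 and 0.480% of all tested probe sets had. Its difference was -2.05 at 30C and -0.86 at 25C (SE 0.180), and its adjusted p ran from 0.0606 to 0.693 over the alternatives. CG32444 (-0.95 ± 0.424, adjusted p = 0.607), CG42788 (1.0 ± 0.512, adjusted p = 0.624) and the CG42748 probe set that was further below WT at 30C (-0.54 ± 0.292, adjusted p = 0.643) followed. The largest negative values were those of CG15044 (-1.21), CG5274 and CG11400 (-1.08), and the largest positive ones those of CG42788, CG11961 (0.65) and CG7408 (0.63). Most of these sizes moved with single arrays. Leaving out 1 array gave -1.98 (without S284Y 30C array 1) to -0.64 (without S284Y 30C array 3) for CG15044. It gave -1.54 (without S284Y 30C array 1) to -0.58 (without S284Y 25C array 3) for CG11400. For CG7408 it gave 1.2 without S284Y 30C array 2, 0.38 without array 1 and 0.30 without array 3. For CG11961 it gave 1.01 without S284Y 25C array 1, 0.30 without array 2 and 0.39 without WT 25C array 1. For CG42788 and CG32444 it was 0.66 and -0.51 without S284Y 25C array 3. A brighter probe set of CG42788, not chosen, differed from WT by -0.17 at 30C and -0.19 at 25C. A dimmer one, also not chosen, differed by 0.18 at 30C and -1.13 at 25C. CG5274 stayed between -1.28 and -1.13.

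By sign, 29 of the 47 were further below WT at 30C and 18 at 25C, where 49.4% of all tested probe sets had a negative interaction. The median was -0.19, against -0.09 over all CG probe sets and 0.01 over all tested ones. Among the 12 probe sets with the lowest mean difference 9 were further below WT at 30C, and differences of over 4-fold numbered 13 at 30C and 5 at 25C. Both counts rest on genotype values that the choice used and have no share over all probe sets beside them. The interaction passed for 0 of the 47 and for 0.00% of all tested probe sets. Neither count therefore shows a temperature dependence, and its absence is not shown either. The tilt moved with the S284Y arrays at 25C that were kept. Without array 1 it was 24 of 47 (median -0.07), without array 3 it was 35 (median -0.31), and without arrays 2 and 3 it was 36 (median -0.42). The medians over all tested probe sets in these fits were -0.03, -0.02 and 0.01. With those 2 arrays left out the median difference from WT at 25C was -0.95.

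Relatives of the chosen genes were then read on the same arrays, from families listed by hand once the 45 genes were known. The 18 families hold 19 of the chosen genes and 164 other measured genes. A CG-numbered relative that met the thresholds of the choice would be among the chosen genes. The counts below thus leave out the lowest CG genes beforehand and cannot show whether a family was lower. Of the 164, 3 were lower and 1 was higher in S284Y at 30C, and 0 were lower and 3 higher at 25C (limma adjusted p under 0.05), against 1.17% and 0.351% of all tested probe sets at 30C and 0.473% and 0.315% at 25C. Their median difference was -0.28 at 30C and -0.08 at 25C. Among 15 other zinc carboxypeptidases 0 were lower, and CG17633 was higher at 25C (1.12 ± 0.173, adjusted p = 0.00723). CG6839, a nuclease relative whose gene lies next to CG3819, was higher at 25C (1.33 ± 0.240, adjusted p = 0.0204; 0.83, adjusted p = 0.131 at 30C), while CG3819 lay at -2.74. Of 33 other ecdysteroid kinase-like genes CG10513, a close neighbour of CG11892, was higher at 25C (1.22 ± 0.244, adjusted p = 0.0353). Another near neighbour, the dim CG11891, was lower without passing (-2.76, adjusted p = 0.0862 at 25C; -1.31, adjusted p = 0.529 at 30C). The medians of the 33 were -0.40 at 30C and 0.05 at 25C.

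The 3 relatives that were lower at 30C were SLC6 or SLC2 transporters. They are 1.83% of the 164, near the 1.17% of all tested probe sets, so no family theme is drawn from them. Of 13 other SLC6 genes these were CG13794 (-2.28 ± 0.438, adjusted p = 0.0202) and ine (-1.52 ± 0.341, adjusted p = 0.0453), where ine encodes a transporter known from nerve and tubule. Of 21 other SLC2 genes Tret1-1, the trehalose transporter, was lower (-1.14 ± 0.184, adjusted p = 0.00686) and sut1 higher (1.03 ± 0.200, adjusted p = 0.0220). At 25C these differed by -0.41, -1.42, -0.41 and 0.62 without passing. Among the 3 other lipocalins GLaz did not pass (-1.04, adjusted p = 0.0928 at 30C; -1.14, adjusted p = 0.0801 at 25C).

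**Figure D4:**
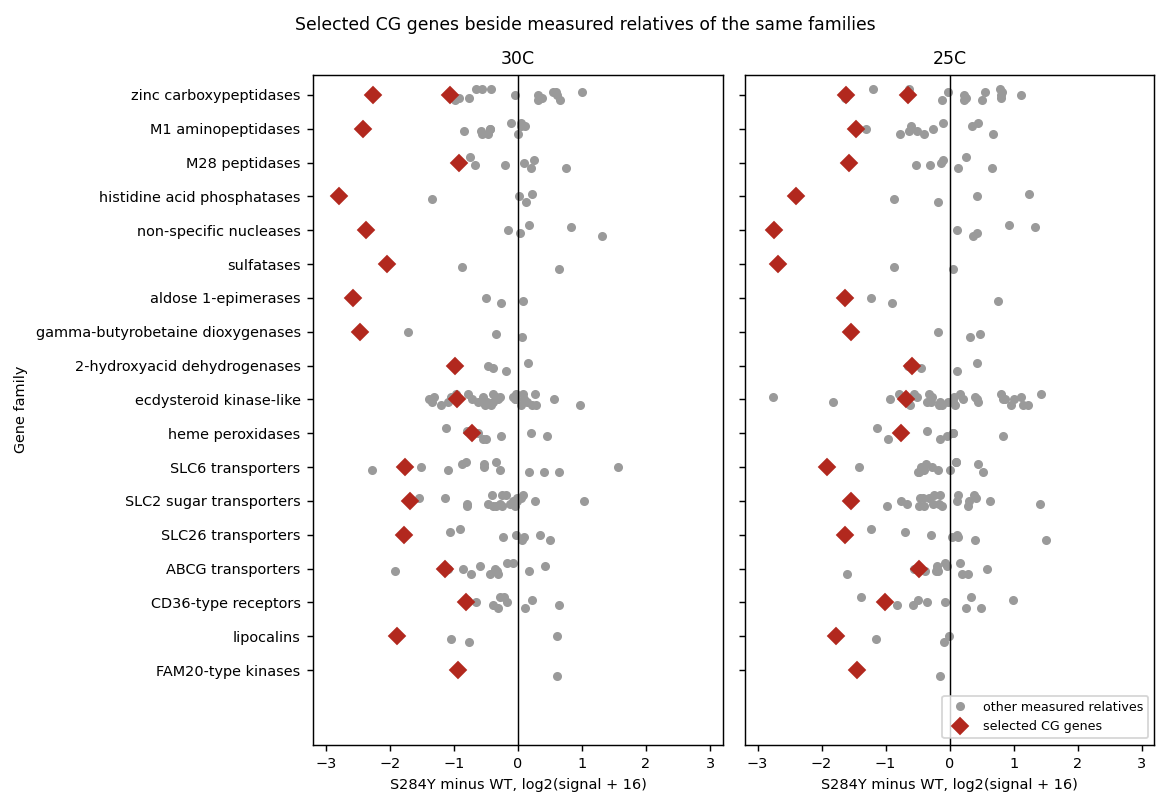
S284Y minus WT difference on the log2(signal + 16) scale of the chosen CG genes (red diamonds) and of other measured genes of the same families (grey circles, spread vertically only for visibility), at 30C (left) and 25C (right). The chosen genes lie at the low end of most families because they were chosen for low values, and the grey circles lie on both sides of 0.

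No pair of them lay within 20 kb of each other, the smallest gap being 37.5 kb by the RefSeq annotation of Release 6. Within 20 kb of the 45 genes, 309 other genes were measured, each read by its brightest probe set, and 6 of them (1.94%) met the same S284Y thresholds, where 1.22% of all tested probe sets did. These were Cda9, a chitin deacetylase gene beside CG11400 (-1.75 at 30C and -2.83 at 25C), the noncoding lncRNA:CR9284 near CG13492 (-2.97 and -2.10), Dad, an inhibitor of BMP-type signalling, near CG4009 (-1.16 and -1.76), Dlg5 near CG31705 (-0.95 and -1.97), Lac, the gene of the cell adhesion protein Lachesin, near CG8545 (-0.73 and -0.87) and the ABC transporter gene E23 beside CG3285 (-0.31 and -1.61). The median mean difference of the 309 neighbours was -0.02. A neighbour with a CG number that met the thresholds would have been chosen itself, unless left out by name. The 1.22%, which includes the 47, is therefore no matched share for the 6. Probe sets of genes with proper names had 1.34%, and how many of the 309 neighbours have such names was not counted.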

How the data were processed

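The data are 1-colour array signals of 12 samples in 4 groups of 3. The authors deposited 1 linear intensity per probe set and array; their software and scaling are not given in the sources used here. Means after trimming 2% from each end ran from 1000.12 to 1000.18 over the 12 arrays, so no further scaling was applied; medians ran from 401.25 to 546.45. Of 14010 probe sets, 44 controls were left out. Detection calls were not used, and no filter on low values was applied.

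Signals plus 16 were log2 transformed, which shrinks differences of dim probe sets. Probe sets were named by the array annotation where it gave 1 symbol (12443 of 13966 tested, 327 with several, 1196 with none), and all 47 symbols were unchanged in the RefSeq table. Temperature contrasts and the interaction were tested with limma 3.58.1 in R 4.3.3 (4 group means on all 12 arrays, eBayes with trend, Benjamini-Hochberg over all tested probe sets, threshold 0.05) after a test on simulated data. The number of arrays limits the precision. The members, gene lists and tests were chosen with earlier results of these data known. Named were the 12 lowest members, those with the lowest p or the largest interaction, those at the edge of the threshold, families, and neighbours; further members stand as examples of their role. Families were to be joined by protein similarity, but protein sequences were not used here, so they are listed by hand. Alternatives were offsets 1 and 64, quantile and median scaling, the dimmest 40% left out, eBayes without trend, a block, single arrays left out, arrays 2 and 3 of S284Y at 25C left out, WT 30C array 1 at 25C, and separate fits.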

Additional observations from a re-analysis of the deposited data

How the results depend on the processing

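The median difference at 25C was -0.95 without arrays 2 and 3 of S284Y at 25C, a fit in which 1 S284Y 25C array is assumed to vary like the other groups, and ran from -1.42 to -1.23 without 1 array. At 30C it was -1.27 with offset 64 and ran from -1.40 to -1.28 without 1 array. The choice itself gave 144 probe sets without arrays 2 and 3, between 52 and 96 without 1 array, 39 after median centring (35 of the 47 among them) and 46 after quantile normalization (40 of the 47). With the dimmest 40% left out, 36 of the 47 could be fitted. The number changed between 30C and 25C in S284Y, 5, was 0 with WT 30C array 1 moved to 25C, where 1.59% of all tested probe sets changed. It was 0 in the fit of the 6 arrays (0.0% of all) and 1 with eBayes without trend (0.917% of all). Without 1 array it was between 0 and 9, where 0.122% to 17.2% of all changed. In WT, 0 became 2 in the fit of the 6 arrays, 1 without arrays 2 and 3, and between 0 and 1 without 1 array. The interaction gave 0 in all 21 alternatives. Over all tested probe sets the interaction passed for 0.601% without S284Y 25C array 1, and for 0.0% without any other single array. The interaction value of CG11961 turned to -0.085 without arrays 2 and 3. The cause of these shifts was not tested. With the replicate number as a block, 0 of the 47 changed in S284Y, against 1.17% of all tested probe sets. That block has no known basis: of 18 same-numbered pairs of arrays 0 had deviations correlated above 0.1 (-0.13 to 0.06), and 2 of 12 arrays correlated best with their own number. Signals of the dimmest members lie near the added 16, so the size of their differences is limited by background.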
